A study of Mus musculus with 16 samples.

Results

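Notch is a signalling route between touching cells, and 10 of its genes were followed here through the differentiation of mouse muscle cells that carry or lack the microRNAs miR-1 and miR-206. The 10 genes, of 35275 in the expression table, are the receptors Notch1, Notch2 and Notch3, the ligands Jag1, Jag2 and Dll1, the ligand-activating enzyme Mib1, and the target genes Hes1, Hey1 and Heyl. They were taken from the table by name. The set was proposed with earlier results of these data known: Notch3 is a reported miR-1/206 target and was chosen by its FPKM values, whose difference between knockout and control changes sign between the stages. All differences of Notch3 are therefore given as a description, with no test.

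Messenger RNA was sequenced from C2C12, a mouse myoblast cell line whose cells fuse into multinucleated myotubes once serum is reduced. The labels describe the cells as PAX7 negative and the control genotype as wild type, and they list 2 control populations and 2 triple-knockout (tKO) clones, which lack miR-206, miR-1a-2 and miR-1a-1. Growth medium (GM) held 20% fetal bovine serum and the cells were near confluence, whereas differentiation medium held 2% horse serum and the cells were taken after 3 days (DM3). Each of the 4 lines was sampled in 2 sets at each stage, labelled BR1 and BR2 and called cultures 1 and 2 here, so that each genotype had 4 libraries per stage, in 4 groups. The tKO genotype rests on 2 clones, and an effect of the knockout and a difference between these particular lines cannot be told apart beyond what the 2 lines on each side show. The p-values measure only the spread between the 4 libraries of a group, in which the 2 cultures of a line count as separate units. They do not measure the spread between lines alone, for which fits with line averages as units are given below. The levels of the deleted microRNAs themselves were not analysed here.

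In Notch signalling, a ligand of the Jagged or Delta-like family on 1 cell binds a Notch receptor on its neighbour. Ubiquitination of the ligand by Mib1 and its endocytosis pull on the receptor, which is then cut by an ADAM protease and by gamma-secretase. The freed intracellular part enters the nucleus, joins the DNA-binding protein Rbpj and a Mastermind protein, and switches on genes of the Hes and Hey families, which encode transcriptional repressors. In skeletal muscle the pathway is known for keeping satellite cells quiescent and for restraining the differentiation of myoblasts, and Notch3 is best known from vascular mural cells and is also expressed by satellite cells.

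The microRNA sequence and its matches in the 3′ untranslated regions (UTRs) of the 10 genes are shown first, because Notch3 entered the set as a reported target. In the line of miR-206-3p (RefSeq, GRCm38.p6, chr1:20679055-20679076, plus strand, 22 bases), the capitals mark the seed, bases 2 to 8. The lines of Notch3, Notch2 and Heyl are on build GRCm38 with the UTRs of GENCODE mouse release 21, and their capitals mark a match of 7 bases. ACATTCC (Notch2) matches the whole seed. CATTCCA (Notch3 and Heyl) matches bases 2 to 7, and its last A lies opposite the base before the seed. miR-1 belongs to the same seed family, and its mature sequence is named only.
mmu-miR-206-3p: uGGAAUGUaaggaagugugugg
Notch3, chr17:32121175-32121200, minus strand: ccttcctcacttcactgCATTCCAga
Notch3, chr17:32121033-32121058, minus strand: gagatgtattttgtatgCATTCCAct
Notch2, chr3:98147986-98148011, plus strand: ttcagcctcctgttcccACATTCCcg
Heyl, chr4:123248408-123248433, plus strand: ggtgaccccagtagtctCATTCCAct

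Notch3 held 2 matches to CATTCCA, starting at bases 637 and 779 of a UTR of 1000 bases. Notch2 held 1 match to ACATTCC, at base 559 of 2917, and Heyl 1 match to CATTCCA, at base 1795 of 3245. None of the 10 UTRs held the longer match ACATTCCA, and the other 7 genes held none of these matches, Mib1 with its UTR of 6453 bases among them. Of the 10801 tested genes with an annotated UTR, 4.46% held ACATTCCA, 11.5% held ACATTCC, 13% held CATTCCA (the longer match counts under both), and 18.9% held at least 1 of them. A match is a description of the letters and not a measurement of binding. Mib1 (chr18:10725548-10818704) has another tie to the family: the Mir1a-2 gene lies on the opposite strand within intron 12 of a Mib1 transcript with 21 exons.

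Expression is given as FPKM, fragments relative to the length of the gene and to the total of the library, which can be compared between genes. Differences between groups were tested with limma on log2(FPKM + 1), with p-values adjusted over all 11832 tested genes by the Benjamini-Hochberg method, and a gene is said to rise or fall where the adjusted p was under 0.05. A difference on this scale understates the change of genes with low FPKM, so the ratio of the mean FPKM is given beside it. Values of a group follow the order line 1 and line 2 of culture 1, then line 1 and line 2 of culture 2, where a line is a control population or a tKO clone. The labels do not say that a clone and the population of the same number belong together, so comparisons of same-numbered lines are a description only.

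**Figure D1:**
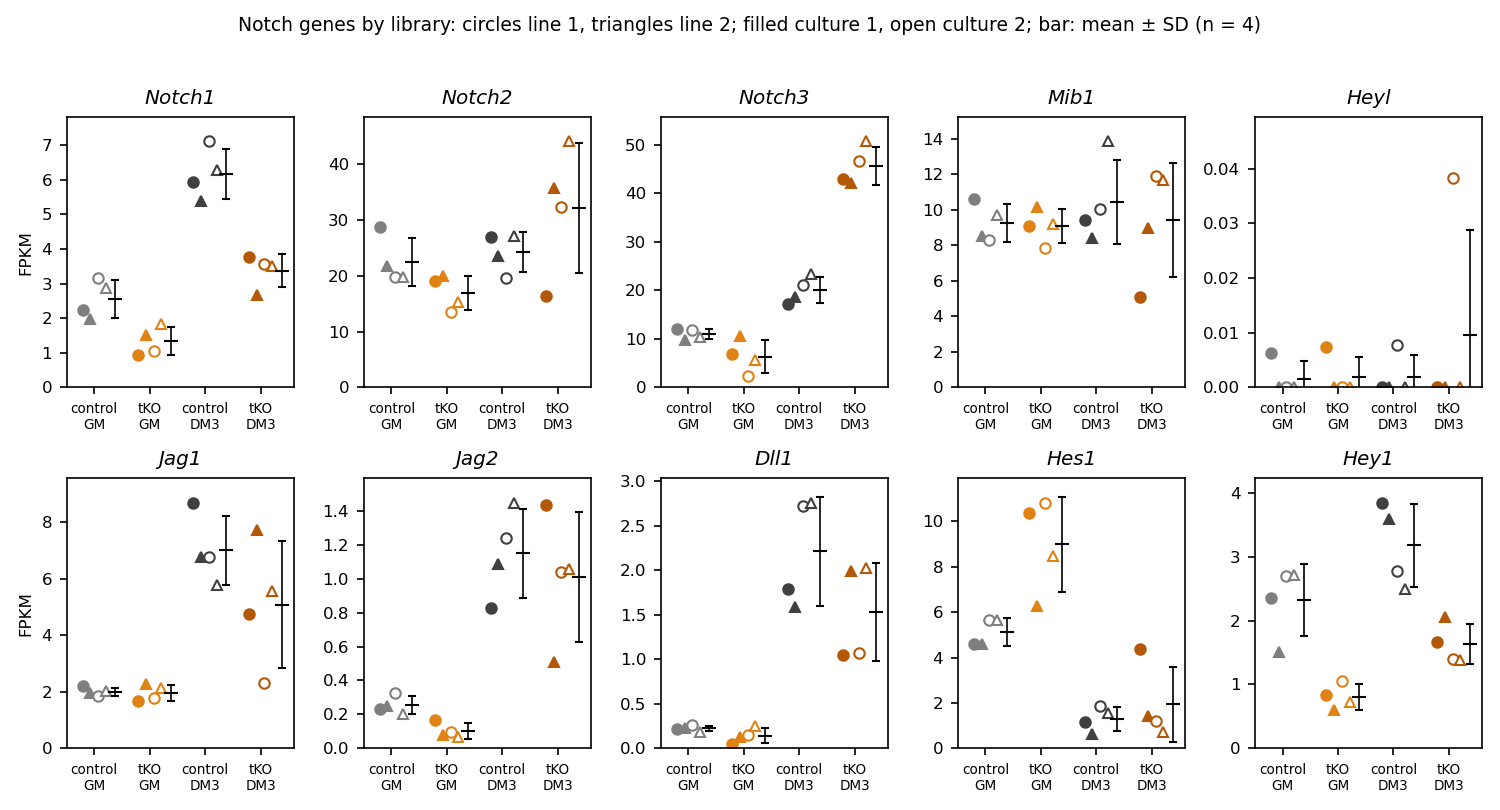
FPKM of each gene (linear axis from 0, 1 panel per gene) in the 16 libraries. Symbols are single libraries (circles line 1, triangles line 2, filled culture 1, open culture 2), and the bar beside them is the mean ± SD of the 4. Notch3 in tKO DM3 (42.1 to 50.6 FPKM) lies above all other groups, Notch1 and Hey1 lie lower in tKO than in control at both stages, and Heyl stays at or near 0.

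Among the receptors, Notch3 (ENSMUSG00000038146, chr17:32120820-32166880, minus strand) had the widest swing. In control GM its level was 12.003, 9.73, 11.8 and 10.3 FPKM, and in tKO GM it was 6.85, 10.5, 2.35 and 5.57 FPKM. In control DM3 it was 17.2, 18.5, 21.1 and 23.4 FPKM, and in tKO DM3 42.8, 42.1, 46.5 and 50.6 FPKM. The 2 genotypes overlapped in GM, where clone 2 of culture 1 reached the control range, and did not overlap in DM3, where every tKO library lay above every control library. In GM the control mean was 11 ± 1.1 FPKM and the tKO mean 6.32 ± 3.38 (SD, n = 4 each), a log2 difference of -0.84. In DM3 the means were 20 ± 2.73 and 45.5 ± 3.93 FPKM (SD, n = 4 each), a ratio of 2.27 and a log2 difference of 1.15.

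The DM3 difference in Notch3 was alike in its parts and the GM difference was not. Within culture 1 and culture 2, the log2 difference of tKO from control was 1.204 and 1.095 in DM3, against -0.31 and -1.36 in GM. Clone 1 against population 1 gave 1.19 in DM3 and -1.33 in GM, and clone 2 against population 2 gave 1.11 and -0.34. The lowest GM value, 2.35 FPKM in clone 1 of culture 2, still rested on 428 fragments. In tKO cells Notch3 was 7.20-fold higher in DM3 than in GM, a log2 difference of 2.80.

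In control cells Notch3 was 1.83-fold higher in DM3 than in GM, a log2 difference of 0.81, and the 4 DM3 libraries all exceeded the 4 GM libraries. These control libraries are part of the pattern for which Notch3 was named, so this difference is a description too. In bulk RNA a larger share of cells expressing a gene and more of its RNA per cell cannot be told apart.

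Notch1 (ENSMUSG00000026923, chr2:26457903-26516663, minus strand), a receptor active in muscle progenitors, was lower in tKO cells at both stages and higher in DM3 than in GM in both genotypes. Its level was 2.25, 1.96, 3.15 and 2.86 FPKM in control GM and 0.946, 1.498, 1.04 and 1.82 FPKM in tKO GM. It was 5.94, 5.38, 7.11 and 6.29 FPKM in control DM3 and 3.76, 2.67, 3.56 and 3.51 FPKM in tKO DM3. The genotypes did not overlap at either stage, and so could not overlap within either culture or either pair of same-numbered lines.

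In GM the Notch1 mean fell from 2.56 ± 0.546 FPKM in control to 1.33 ± 0.407 in tKO (SD, n = 4 each), a log2 difference of -0.62 (standard error, SE, 0.15, limma, adjusted p = 0.0407). In DM3 it fell from 6.18 ± 0.726 to 3.38 ± 0.483 FPKM (SD, n = 4 each), a log2 difference of -0.72 (SE 0.15, limma, adjusted p = 0.0122). Of all tested genes, 2.06% were called between the genotypes in GM and 3.38% in DM3. The GM call lies close to the threshold: it was lost on leaving out control GM of population 1 in culture 1 (limma, adjusted p = 0.0918), of population 1 in culture 2 (0.136) or of population 2 in culture 2 (0.106), tKO GM of clone 1 in culture 1 (0.115) or culture 2 (0.149), or any 1 of the 4 control DM3 libraries (0.0504 to 0.0565), which enter the shared estimate of the spread. The DM3 call was lost without control DM3 of population 1 in culture 2 (limma, adjusted p = 0.0521), and both calls were lost without either control population (0.772 and 0.331 in GM, 0.389 and 0.137 in DM3), with the averages of the 2 cultures of a line as units (0.163 and 0.0891) and with only the compared libraries (0.0805 and 0.0525). The GM call was also lost without clone 1 (-0.41, limma, adjusted p = 0.344), with no filter on low values (0.0703) and with median-of-ratios scaling (0.0532).

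From GM to DM3, Notch1 rose 2.42-fold in control cells, a log2 difference of 1.02 (SE 0.15, limma, adjusted p = 1.91e-05). That comparison called 61.5% of all tested genes, 23.2% as higher and 38.3% as lower. Notch1 rose 2.54-fold in tKO cells, a log2 difference of 0.92 (SE 0.15, limma, adjusted p = 5.18e-05), in a comparison that called 60.9% of all tested genes, 24.9% as higher and 36% as lower. The tKO range in DM3 (2.67 to 3.76 FPKM) overlapped the control range in GM (1.96 to 3.15 FPKM) and lay below the control range in DM3.

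Notch2 (chr3:98013538-98150367, plus strand), a receptor found in many tissues, was the most abundant of the 3 receptors in every GM library. Its level was 28.7, 21.7, 19.7 and 19.7 FPKM in control GM, 19.1, 19.9, 13.5 and 15.2 in tKO GM, and 26.9, 23.6, 19.6 and 27.1 in control DM3. In tKO DM3 it was 16.3, 35.7, 32.3 and 44.1 FPKM, so that the clone 1 library of culture 1 lay below all control DM3 libraries and the other 3 lay above them. Notch2 rose 1.89-fold in tKO cells from GM to DM3, a log2 difference of 0.82 (SE 0.23, limma, adjusted p = 0.00571), although the low library falls within the GM range, and the call was lost without clone 2 (0.49, limma, adjusted p = 0.166). In control cells the log2 difference between stages was 0.11, with a 95% interval of -0.37 to 0.60 (limma, adjusted p = 0.693).

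Between the genotypes Notch2 was not called, with a log2 difference of -0.39 in GM (95% interval -0.87 to 0.10, limma, adjusted p = 0.410) and 0.32 in DM3 (95% interval -0.17 to 0.80, limma, adjusted p = 0.521). Within DM3 the log2 difference was -0.054 in culture 1 and 0.69 in culture 2. A single library decided the DM3 value: without clone 1 of culture 1 it became 0.60 (limma, adjusted p = 0.0428), and without all of clone 1 it was 0.70 (limma, adjusted p = 0.0436).

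**Figure D2:**
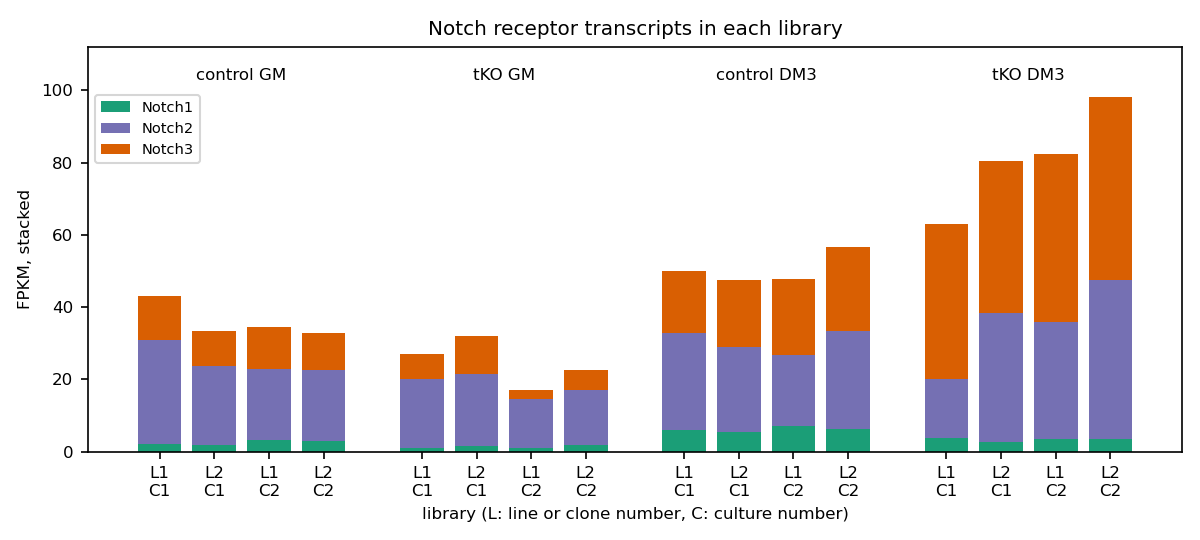
Summed FPKM of Notch1, Notch2 and Notch3 in each of the 16 libraries, stacked by receptor, in the order of the groups. The sums are largest in tKO DM3 (62.9 to 98.2 FPKM), where Notch3 is more than 51% of the sum in each library.

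Taken as a share of the summed FPKM of the 3 receptors, which is a description because Notch3 was chosen for its pattern, the make-up moved from Notch2 to Notch3. Notch3 made up 30.6% ± 2.66 of the sum in control and 24.2% ± 7.84 in tKO libraries of GM, and 39.7% ± 4.10 and 57.1% ± 7.62 in those of DM3 (SD, n = 4 each). Notch2 made up 62.2%, 70.2%, 48.0% and 38.6% in the same order. The level of Notch3 exceeded that of Notch2 in all 4 tKO DM3 libraries (1.15 to 2.62 times), in 1 control DM3 library (population 1 of culture 2, 1.08 times) and in no GM library. The summed level was 36.0 ± 4.73 FPKM for control and 24.6 ± 6.39 for tKO libraries of GM, and 50.5 ± 4.34 and 81.0 ± 14.4 for those of DM3 (SD, n = 4 each), and the DM3 groups did not overlap.

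The 3 ligands were low in GM and higher in DM3 in both genotypes. Jag1 (chr2:137081456-137116644, minus strand), a ligand of the Jagged type, was at 2.19, 1.95, 1.86 and 2.01 FPKM in control GM and 1.67, 2.27, 1.78 and 2.14 in tKO GM. It was at 8.69, 6.77, 6.75 and 5.78 FPKM in control DM3 and 4.73, 7.72, 2.30 and 5.55 in tKO DM3, where both clone 1 libraries and clone 2 of culture 2 lay below every control library. Jag1 rose 3.49-fold with differentiation in control cells, a log2 difference of 1.40 (SE 0.21, limma, adjusted p = 2.94e-05), and 2.59-fold in tKO cells, a log2 difference of 0.96 (SE 0.21, limma, adjusted p = 0.000943), with no overlap between the stages in either genotype.

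Between the genotypes Jag1 was not called. The log2 difference was -0.023 in GM (95% interval -0.47 to 0.43, limma, adjusted p = 0.976) and -0.47 in DM3 (95% interval -0.92 to -0.019, limma, adjusted p = 0.276). The DM3 difference was larger in clone 1: it was -0.87 without clone 2 (limma, adjusted p = 0.0176), and clone 2 against population 2 gave 0.059.

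Dll1 (chr17:15367354-15376872, minus strand), a Delta-like ligand that acts on muscle progenitors in the embryo, rested on 5 to 28 fragments in every GM library. Its GM mean was 0.224 ± 0.0292 FPKM for control and 0.143 ± 0.0853 for tKO (SD, n = 4 each). In DM3 it was at 1.79, 1.59, 2.72 and 2.76 FPKM in control and at 1.04, 2.00, 1.07 and 2.03 in tKO libraries, where clone 1 lay below every control library and clone 2 within the control range. The DM3 mean was 9.90-fold that of GM in control cells and 10.7-fold in tKO cells, and the stages did not overlap in either genotype.

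Jag2 (chr12:112908590-112929495, minus strand), the other Jagged ligand, was at 27 to 34 fragments per library in control GM (0.253 ± 0.0527 FPKM) and at 8 to 20 in tKO GM (0.102 ± 0.0453 FPKM, SD, n = 4 each), without overlap. It was at 0.827, 1.08, 1.24 and 1.45 FPKM in control DM3 and 1.44, 0.507, 1.04 and 1.05 in tKO DM3. The DM3 mean was 4.54-fold that of GM in control cells and 9.91-fold in tKO cells, again without overlap. Dll1 and Jag2 passed the filter on low values, a mean of 0.5 FPKM over the 16 libraries, only through their DM3 libraries, so that their differences between the stages are given as a description, with no test.

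Neither of these 2 ligands was called between the genotypes. For Dll1 the log2 difference was -0.10 in GM (95% interval -0.44 to 0.24, limma, adjusted p = 0.793) and -0.35 in DM3 (95% interval -0.69 to -0.014, limma, adjusted p = 0.276), the latter becoming -0.63 without clone 2 (limma, adjusted p = 0.0320). For Jag2 it was -0.19 in GM (95% interval -0.48 to 0.10, limma, adjusted p = 0.523) and -0.11 in DM3 (95% interval -0.40 to 0.18, limma, adjusted p = 0.738).

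Since the ligands were higher in DM3, their promoters were searched for the E-box CAGCTG, the letters bound by myogenic basic helix-loop-helix factors such as MyoD and myogenin. RefSeq promoters (GRCm38.p6, 250 bases before to 50 after a start) were at hand for the 3 receptors and the 3 ligands, with 2 starts for Dll1, or 7 in all. CAGCTG reads the same on both strands, and it was found 82 bases before the RefSeq start of Jag1 and 132 bases before 1 of the 2 RefSeq starts of Dll1. These starts can differ from the gene bounds given above. The Jag1 match lies inside the bounds of Jag1, and the Notch1 promoter searched (chr2:26503773-26504072) inside those of Notch1. The capitals mark it in these lines.
Jag1, chr2:137116587-137116612, minus strand: gcgtttcatgCAGCTGatctgaaagg
Dll1, chr17:15377049-15377074, minus strand: cattaccataCAGCTGagcgcacaaa

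Of all 32851 promoters in that table, 16.3% hold CAGCTG. The related E-box CACCTG, searched on both strands, was found in the same Dll1 promoter and in none of the other 6, against 20.2% of all promoters. TGGGAA, the core letters bound by Rbpj, searched on both strands, was in none of the 7 promoters, against 25.6% of all. These are matches of letters within a short window, and the data hold no binding measurement.

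Mib1, the ubiquitin ligase that acts on both ligand families, showed no called change. Its mean was 9.28 ± 1.07 FPKM in control GM, 9.08 ± 0.949 in tKO GM and 10.4 ± 2.37 in control DM3 (SD, n = 4 each). In tKO DM3 it was at 5.06, 8.99, 11.9 and 11.7 FPKM, with the lowest value in the same library that was low in Notch2. The log2 difference of tKO from control was -0.026 in GM (95% interval -0.45 to 0.40, limma, adjusted p = 0.968) and -0.17 in DM3 (95% interval -0.60 to 0.25, limma, adjusted p = 0.719). Between the stages it was 0.14 in control cells (limma, adjusted p = 0.570) and -0.0093 in tKO cells (limma, adjusted p = 0.973).

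The target genes did not move together. Hes1 (chr16:30064384-30067796, plus strand), a repressor that is a direct Notch target in many tissues, was at 4.58, 4.61, 5.65 and 5.67 FPKM in control GM and 10.4, 6.27, 10.8 and 8.47 in tKO GM. It was at 1.16, 0.642, 1.88 and 1.55 FPKM in control DM3 and 4.39, 1.43, 1.18 and 0.722 in tKO DM3. In GM every tKO library lay above every control library, and in DM3 the ranges overlapped, with 1 high tKO library, clone 1 of culture 1.

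Hes1 fell with differentiation in both genotypes, whereas Notch1 and Jag1 rose in both. In control cells it was 3.92-fold lower in DM3 than in GM, a log2 difference of -1.43 (SE 0.28, limma, adjusted p = 0.000288), and in tKO cells 4.65-fold lower, a log2 difference of -1.89 (SE 0.28, limma, adjusted p = 2.03e-05). Between the genotypes in GM the means of 5.13 ± 0.616 and 8.98 ± 2.08 FPKM (SD, n = 4 each) gave a log2 difference of 0.68 (SE 0.28), which did not pass the threshold (limma, unadjusted p = 0.0244, adjusted p = 0.208) although the groups did not overlap. In DM3 the log2 difference was 0.23 (95% interval -0.35 to 0.81, limma, adjusted p = 0.728), with 0.94 in culture 1 and -0.48 in culture 2, and -0.11 without clone 1 of culture 1.

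Hey1 (chr3:8663362-8667039, minus strand), a repressor of the Hey family, was lower in tKO cells at both stages, as was Notch1. Its level was 2.35, 1.51, 2.70 and 2.72 FPKM in control GM and 0.842, 0.593, 1.06 and 0.722 in tKO GM, on 41 to 55 fragments per tKO library. It was 3.85, 3.59, 2.78 and 2.49 FPKM in control DM3 and 1.67, 2.06, 1.40 and 1.39 in tKO DM3. The genotypes did not overlap at either stage.

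Hey1 was 2.88-fold lower in tKO than in control cells in GM, a log2 difference of -0.87 (SE 0.15, limma, adjusted p = 0.00598), and 1.95-fold lower in DM3, a log2 difference of -0.66 (SE 0.15, limma, adjusted p = 0.0232). The GM call was lost without control population 1 (limma, adjusted p = 0.376). The DM3 call was lost on leaving out control DM3 of population 1 (limma, adjusted p = 0.0846) or population 2 (0.0748) in culture 1, or tKO DM3 of clone 1 (0.0702) or clone 2 (0.0627) in culture 2, and without control population 1 (0.465), control population 2 (0.133) or clone 1 (0.0883). It was lost as well with line averages as units (limma, adjusted p = 0.0724) and with only the compared libraries (0.101).

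With differentiation Hey1 rose 2.03-fold in tKO cells, a log2 difference of 0.54 (SE 0.15, limma, adjusted p = 0.00575), and that call was lost without clone 2 (0.38, limma, adjusted p = 0.168). In control cells the log2 difference was 0.34 (95% interval 0.013 to 0.66), not past the threshold (limma, adjusted p = 0.0663). It passed under median-of-ratios scaling (limma, adjusted p = 0.0165) and without control DM3 of population 2 in culture 2 (limma, adjusted p = 0.0355). Heyl (chr4:123233556-123249875, plus strand), the remaining Hey family member of the set, had 0 or 1 fragments in GM libraries, 0 to 2 in control DM3 and 0 in tKO DM3 except for 5 in clone 1 of culture 2, against a detection floor of 3 fragments (0.0117 to 0.0292 FPKM). It stayed below the filter and was not tested.

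**Figure D3:**
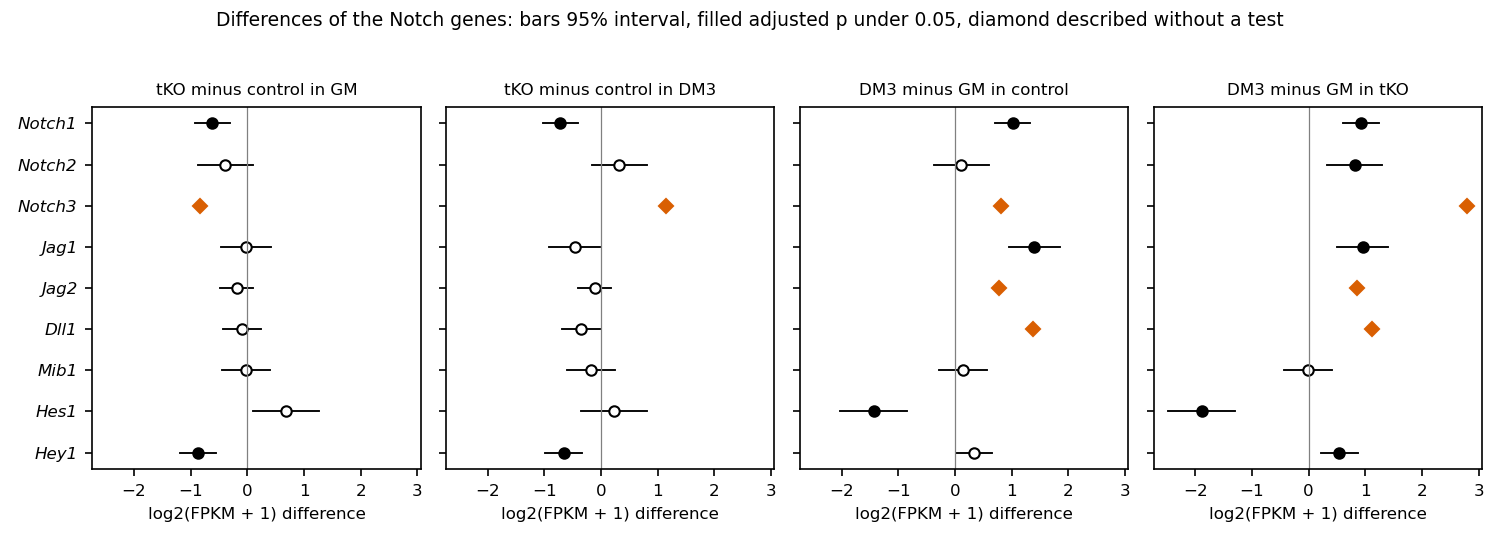
Log2(FPKM + 1) difference of 9 genes in the 4 comparisons (circles, with 95% intervals from limma, filled for adjusted p under 0.05). Diamonds are described without a test: Notch3 throughout, and Jag2 and Dll1 between the stages. Notch1 and Hey1 lie below 0 in both genotype comparisons, and Hes1 is the only one of the called genes below 0 in the stage comparisons.

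Of the 8 genes tested between the genotypes (all but Notch3 and Heyl), 2 fell in tKO cells, Notch1 and Hey1, in GM and in DM3, and none rose. Both stages come from the same lines and share 1 estimate of the spread, so that DM3 is not an independent repeat of GM. With line averages as units, 1 of these genes (Hey1) was still called in GM and 0 in DM3. Of all tested genes, 0.549% were called higher and 1.51% lower in tKO cells in GM, and 2.02% higher and 1.36% lower in DM3. The groups did not overlap for 4 of the 8 in GM (Notch1, Jag2, Hes1 and Hey1), against 14% of all tested genes, and for 2 of the 8 in DM3, against 8.52%. The median log2 difference of the 8 was -0.14 in GM and -0.26 in DM3, beside -0.012 and 0.0077 over all tested genes.

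Between the stages, 6 genes remained after leaving out Heyl, Notch3, and Dll1 and Jag2, which passed the filter only through DM3. In control cells 2 of the 6 rose (Notch1 and Jag1), 1 fell (Hes1) and 3 were not called, a share near the 61.5% called over all tested genes. In tKO cells 4 of the 6 rose (Notch1, Notch2, Jag1 and Hey1), 1 fell (Hes1) and Mib1 was not called, where 60.9% of all tested genes were called, 24.9% as higher and 36% as lower. The stages did not overlap for 3 of the 6 in control cells, against 64.4% of all tested genes, and for 4 of the 6 in tKO cells, against 49.1%. The median log2 difference of the 6 was 0.24 for control and 0.68 for tKO cells, beside -0.15 and -0.12 over all tested genes. Median-of-ratios scaling moved the medians over all tested genes to 0.0097 and 0.0064, and turned 2743 higher and 4529 lower calls in control cells into 3611 and 3631, and 2951 and 4257 in tKO cells into 3571 and 3587. The directions of the genes called here were the same under that scaling.

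Whether the response to differentiation itself differed between the genotypes was tested by the interaction of genotype and stage. None of the 8 tested genes was called by limma, 1 (Notch2) had an unadjusted p under 0.05, and voom on the fragment numbers called none either. Of all tested genes, 0.254% were called, 0.203% with a positive and 0.0507% with a negative interaction. For Notch2 the interaction was 0.70 on the log2 scale (95% interval 0.015 to 1.39, limma, adjusted p = 0.449), and 0.99 without clone 1 of culture 1 in DM3 (limma, adjusted p = 0.0466). For Notch1 it was -0.10 (95% interval -0.54 to 0.34) and for Hes1 -0.45 (95% interval -1.28 to 0.37). The value for Notch3, 1.99, is the pattern for which it was named. The comparisons of genotypes and of stages share libraries, so that their values are set side by side and no overlap between them is read.

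A list of 60 other genes of the pathway, all present in the table and 44 of them tested, gave the surroundings of the set. Between the genotypes in GM 1 of the 44 was called, as lower in tKO: Maml3, a Mastermind co-activator of the Notch complex, at 4.03 FPKM in control and 2.22 in tKO (log2 difference -0.68, limma, adjusted p = 0.0432). That call was lost in 13 of the 16 fits that leave out a library (limma, adjusted p up to 0.169), the exceptions being tKO GM of clone 2 in culture 1 and tKO DM3 of clone 1 in either culture. In DM3 2 of the 44 rose in tKO cells and none fell. These shares, 2.27% and 4.55%, stand beside 2.06% and 3.38% over all tested genes.

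Ncstn, the nicastrin subunit of gamma-secretase, rose from 28.4 ± 2.57 FPKM in control DM3 to 39.5 ± 1.92 in tKO DM3 (SD, n = 4 each), a log2 difference of 0.46 (limma, adjusted p = 0.00753). All 4 tKO libraries (37.4 to 41.9 FPKM) lay above all control libraries (26.0 to 31.7 FPKM), and the call was lost without either control population (limma, adjusted p = 0.381 and 0.128), with line averages as units (0.0790) and with only the compared libraries (0.0760). Dtx4, a Deltex ubiquitin ligase, rose from 10.3 ± 1.71 to 19.3 ± 4.80 FPKM (SD, n = 4 each), a log2 difference of 0.83 (limma, adjusted p = 0.0308). It was lost on leaving out control DM3 of population 2 in culture 1 (limma, adjusted p = 0.0707), of population 1 (0.113) or 2 (0.0662) in culture 2, or tKO DM3 of clone 2 in culture 1 (0.0658) or culture 2 (0.0764), and without clone 2 altogether it was 0.55 (0.129). It was lost too without control population 1 (limma, adjusted p = 0.401) or 2 (0.326), with no filter (0.0621), with line averages as units (0.0878) and with only the compared libraries (0.0744).

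**Figure D4:**
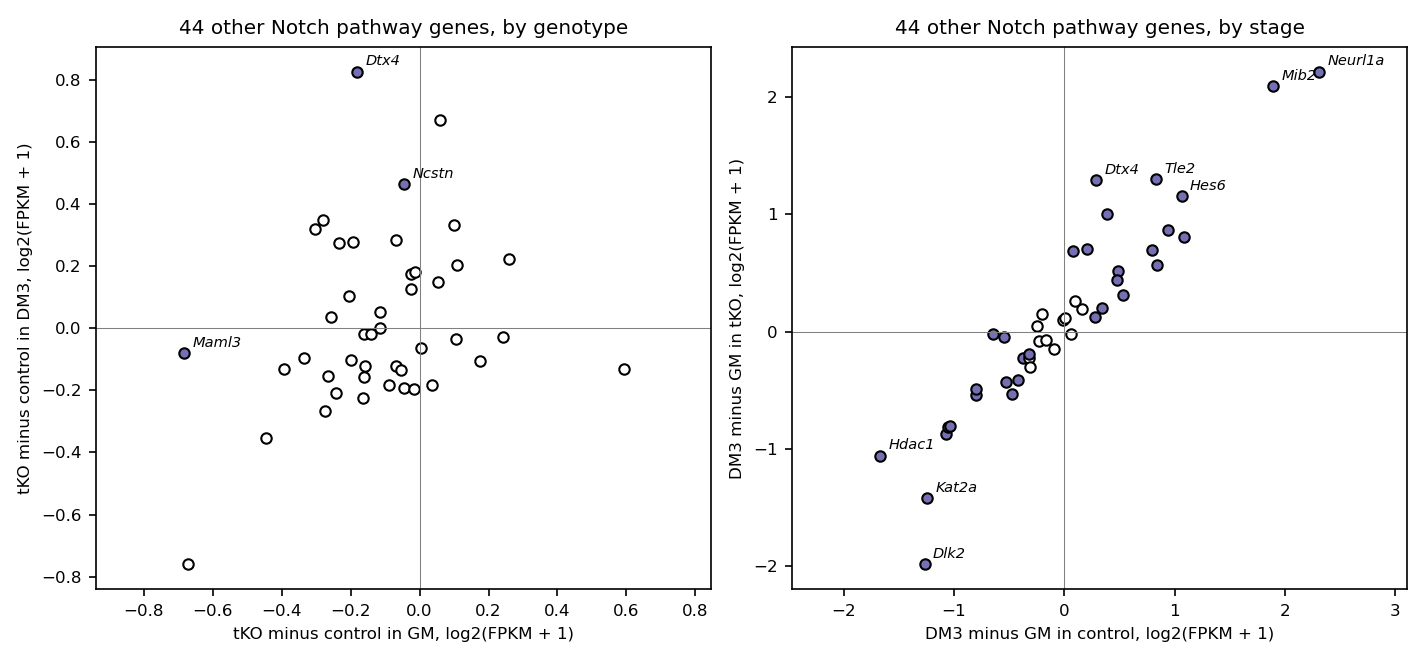
Log2(FPKM + 1) differences of the 44 other tested pathway genes, 1 point per gene. The left panel sets tKO minus control in GM (x) against DM3 (y), the right panel DM3 minus GM in control (x) against tKO cells (y), with filled points for genes called on either axis. Of these, 1 was called in GM and 2 in DM3 on the left, and 28 in control and 23 in tKO cells on the right. The axes of a panel share libraries in part.

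Between the stages, 14 of the 44 rose and 14 fell in control cells, and 14 rose and 9 fell in tKO cells. The called shares were 63.6% and 52.3%, beside 61.5% and 60.9% over all tested genes, and the median log2 differences -0.055 and 0.074. Genes of ubiquitination and endocytosis mostly rose where they were called, with 5 higher and 1 lower of 12 for control and 6 higher and 1 lower for tKO cells. For this class and those below, the shares over all tested genes were 23.2% higher and 38.3% lower for control. For tKO cells they were 24.9% and 36%. Mib2, a second Mind bomb ligase that can stand beside Mib1, rose from 6.74 to 27.7 FPKM in control cells (log2 difference 1.89, limma, adjusted p = 1.90e-09) and from 6.60 to 31.5 FPKM in tKO cells (log2 difference 2.09, limma, adjusted p = 6.43e-10). Neurl1a, a Neuralized-type ligase, rose from 2.17 to 14.9 FPKM in control cells (log2 difference 2.31, limma, adjusted p = 5.95e-06) and from 1.15 to 8.85 FPKM in tKO cells (log2 difference 2.22, limma, adjusted p = 8.44e-06).

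Of the 4 tested glycosyltransferases of the receptors, 3 were called lower in control DM3 and none was called in tKO cells. Those 3 had log2 differences in tKO cells of -0.54 (Poglut1), -0.49 (Lfng) and -0.022 (Pofut1) (limma, adjusted p = 0.0544, 0.152 and 0.905). Neither the difference between the genotypes nor the interaction was called for any of the 4. The cleavage enzymes numbered 9, of which 3 were higher and 2 lower for control, and 3 higher and none lower for tKO cells. The nuclear complex and its co-repressors numbered 17, of which 5 were higher and 7 lower for control, and 4 higher and 7 lower for tKO cells. Hdac1, a histone deacetylase found in co-repressor complexes and in many other settings, fell from 51.4 to 15.6 FPKM in control cells (log2 difference -1.67, limma, adjusted p = 8.78e-06). In tKO cells Hdac1 fell from 54.6 to 26.7 FPKM (log2 difference -1.06, limma, adjusted p = 0.000633). Dlk2, a Delta-like protein without the usual receptor-binding module, fell from 7.03 to 1.03 FPKM in tKO cells (log2 difference -1.99, limma, adjusted p = 5.95e-07) and also in control cells (log2 difference -1.27, limma, adjusted p = 6.27e-05).

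Rbpj and Hes6, and the control value of Dlk2 above, were singled out after their values were seen. Rbpj, the DNA-binding partner of the cleaved receptor, rose from 12.3 to 16.4 FPKM in control cells (log2 difference 0.38, limma, adjusted p = 0.00192, and 0.201 without control population 2). In tKO cells it rose from 9.80 to 20.6 FPKM (log2 difference 1.01, limma, adjusted p = 1.65e-07). The tKO DM3 libraries (19.8 to 21.4 FPKM) lay above the control DM3 libraries (14.9 to 17.5 FPKM). The tKO GM libraries (8.83 to 10.8 FPKM) lay below the control GM libraries (10.98 to 13.4 FPKM). Of all tested genes, 8.52% did not overlap between the genotypes in DM3 and 14% in GM. Rbpj was called between the genotypes at neither stage (limma, adjusted p = 0.0733 in DM3 and 0.104 in GM). Its interaction of 0.62 did not pass the threshold either (limma, adjusted p = 0.0622). Hes6, a Hes family gene known to promote myogenic differentiation rather than to report Notch activity, rose from 16.3 to 35.4 FPKM in control cells (log2 difference 1.06, limma, adjusted p = 9.69e-06) and from 12.02 to 27.4 FPKM in tKO cells (log2 difference 1.15, limma, adjusted p = 4.01e-06), opposite to Hes1.

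The genes whose pattern was most like that of Notch3 were found by the root-mean-square difference of log2(FPKM + 1), each gene centred on its own mean, over the 16 libraries. The closest was Mxd4, a Max-binding repressor, at a difference of 0.341, against a median of 1.17 over all tested genes. It was followed by Tgm5, a transglutaminase (0.351), Matn2, a matrix protein (0.376), Ephb6, an ephrin receptor (0.382), and Pdcd4, an inhibitor of translation (0.405). Mxd4 was at 18.1 ± 3.05 FPKM in GM and 47.5 ± 9.07 in DM3 for control cells, and at 10.7 ± 2.86 and 68.0 ± 5.89 for tKO cells (SD, n = 4 each).

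Library depth ranged from 22642563 to 34954079 fragments in GM and from 27714736 to 56585952 in DM3. The sum of 7 markers of differentiated muscle (Myog, Myh3, Ckm, Tnnt3, Actn2, Tmem8c and Des) ran from 31.6 to 48.0 FPKM over control libraries and 9.56 to 42.1 over tKO libraries of GM, and from 532 to 683 and 235 to 591 over those of DM3. The means of its members differed in direction between the genotypes in DM3: mean Des was 339 FPKM in control and 175 in tKO libraries and Tnnt3 219 and 113, whereas Myh3 was 12.7 and 45.1 and Myog 5.96 and 12.96. Of these named genes only Tnnt3 had ranges that did not overlap between the genotypes in DM3. The sum of 4 proliferation markers was 234 to 287, 178 to 297, 69.0 to 85.0 and 28.5 to 93.8 FPKM in the same order. Both sums differed between the stages without overlap, and the part of these markers in the stage and genotype differences above was not tested. Pax7 was at or below 0.0237 FPKM in all libraries, and the myoblast regulator Myod1 at no more than 3 fragments in each GM library. The other listed myoblast markers were expressed in GM. Mean Myf5 was 17.0 FPKM in control and 12.5 in tKO libraries, Cdh15 9.79 and 29.7, and Des 39.5 and 22.1.

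Cell types in which Notch3 is known to be high were checked by their markers. The 7 markers of smooth muscle and mural cells summed to 1844 to 3029 FPKM over control libraries and 2023 to 5485 over tKO libraries of GM, and to 753 to 1230 and 930 to 1532 over those of DM3, mostly from Acta2. In GM mean Acta2 was 2338 FPKM in control and 3687 in tKO libraries, Pdgfrb 72.9 and 72.7, and Cnn1 2.68 and 7.70. In DM3 mean Acta2 was 894 FPKM in control and 1286 in tKO libraries, Pdgfrb 20.8 and 26.3, and Cnn1 0.349 and 1.17. For each of these genes the ranges of the genotypes overlapped at both stages. The remaining listed markers were near 0 in every library of all groups. Their highest values were 0.206 FPKM for Myh11, 0.0679 for Rgs5, 0.101 for Kcnj8 and 0.0277 for Abcc9. The part of such cells in the Notch3 differences was not tested. The 4 endothelial markers summed to at most 0.483 FPKM in any library, and the 4 fibroblast markers to 5.25 to 6.19, 1.20 to 5.28, 29.1 to 38.3 and 7.02 to 18.6 FPKM in the 4 groups. The 4 adipocyte markers summed to at most 11.6 FPKM and the 4 osteoblast markers to at most 0.561 FPKM.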

How the data were processed

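The authors deposited 1 table of FPKM values with 1 column per library, gene lengths and positions, not pooled. STAR, DESeq and build mm10 (GRCm38) are named without versions, per the submitters' processing notes. The counting program and annotation release are not given in the sources used here, and use of the strand is not stated, so that genes overlapping others (Mib1) are uncertain. Columns were matched to samples by the name in each sample's description, and all columns were mapped.

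FPKM multiplied by gene length gave whole fragment numbers within 0.01 for all values above 0, and these gave depth, a floor of 3 fragments (counting error only) and an added voom fit. Genes averaging 0.5 FPKM or more (11832) were fitted on log2(FPKM + 1) with limma 3.58.1 in R 4.3.3 (group means over the 16 libraries, trend and robust moderation, Benjamini-Hochberg adjustment), with Python 3.11.15 for the rest. The procedure was tested on simulated data without differences between lines. That run therefore does not show how such differences affect the calls.

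The members and lists were chosen with earlier results of these data known. Named genes were all members, up to 3 pathway genes per comparison with the largest called change, the 5 genes most like Notch3 and the markers. Rbpj, Hes6 and the stage difference of Dlk2 in control cells were added after their values were seen. The planned stage tests of Notch3 (control), Jag2 and Dll1 were run but are given as a description, because the choice of Notch3 used those libraries and the filter selected the others through DM3.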

Additional observations from a re-analysis of the deposited data

How the results depend on the processing

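Alternatives were a pseudocount of 0.1, no filter or a filter of 5 FPKM (which by construction leaves only Notch2, Notch3 and Mib1), TPM and median-of-ratios scaling, no trend or robust moderation, line averages as units, a fit of only the compared libraries, leaving out each library or line, a replicate block by culture, and voom on fragments, which was chosen after seeing the data. Of the 10 genes, 2 were called between genotypes in GM. That count was 1 with no filter, with median-of-ratios scaling, with line averages, with only the compared libraries, without control population 2 and without clone 1, 0 with the filter of 5 FPKM and without control population 1, and 1 to 2 on leaving out each library. In DM3 the count of 2 became 0 with the filter of 5 FPKM, with line averages, with only the compared libraries and without either control population, 4 without clone 2, and 1 to 3 on leaving out each library. The 6 called between stages in control cells (Notch3, Jag2 and Dll1 included, which the text only describes) and the 7 in tKO cells (Jag2 and Dll1 included) became 1 each with the filter of 5 FPKM and were 6 to 7 and 7 to 7 on leaving out each library, and the interaction count of 0 was 0 to 1. Notch3 was chosen by its values, and Jag2 and Dll1 passed the filter only through DM3. The steadiness of the stage counts is therefore not read as a result. Over all tested genes the counts ran from 33 to 1315 in GM, 49 to 1136 in DM3, 4440 to 8293 and 5230 to 7906 between stages in control and tKO cells, and 0 to 179 for the interaction. Of the other pathway genes, the 1 called in GM became 0 with the filter of 5 FPKM, with line averages, with only the compared libraries and without either control population, 2 with the replicate block and without clone 2, and 0 to 2 on leaving out each library. The 2 called in DM3 became 1 with no filter, 0 with line averages, with only the compared libraries and without either control population, 4 without clone 1, and 1 to 7 on leaving out each library. The 28 called between stages in control cells became 15 without population 1 and 17 without population 2 (24 to 33 on leaving out each library), the 23 in tKO cells were 21 to 27, and the 0 for the interaction was 1 with the replicate block (Rbpj) and 0 to 2 on leaving out each library. With that replicate block the counts for the 10 genes were 2, 2, 6, 7 and 0, as without it. Culture numbers did not pair the groups throughout: the difference of culture 1 from culture 2 correlated across genes with r = 0.543 between the GM groups and 0.343 between the DM3 groups, but from -0.106 to 0.0993 across stages. Small differences that were not called changed sign. The Notch1 interaction was 0.059 with pseudocount 0.1, 0.038 with TPM, 0.20 without clone 2 and 0.065 with voom, and the Dll1 interaction was 0.23 with voom. The stage difference of Mib1 in tKO cells was 0.0093 with TPM, 0.13 with median-of-ratios scaling, 0.076 without clone 1 and -0.13 to 0.23 on leaving out each library. Without clone 1 the GM differences of Jag1 and Mib1 were 0.094 and 0.062, the DM3 difference of Hes1 was -0.14 and the Jag2 interaction -0.055, the last being -0.035 without control population 1. Without clone 2 the DM3 differences of Notch2 and Jag2 were -0.062 and 0.060, and without control population 2 the stage difference of Notch2 in control cells was -0.052. On leaving out each library, the GM difference ran from -0.072 to 0.026 for Jag1 and -0.077 to 0.035 for Mib1, the DM3 difference from -0.30 to 0.066 for Mib1, -0.11 to 0.44 for Hes1 and -0.21 to 0.021 for Jag2, and the interaction from -0.024 to 0.21 for Jag2 and -0.27 to 0.092 for Mib1. Depth limits Heyl, Jag2 and Dll1 in GM, where at most 34 fragments lay behind a value.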

Other observations

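Several pathway genes stayed below the filter on low values and are given as values only. Hes5 and Dlk1 had 0 fragments in all 16 libraries. Dll4, a Delta-like ligand best known from endothelium, had 0 fragments in control GM, at most 1 in tKO GM, 0.0909 to 0.193 FPKM in control DM3 and 0 to 0.154 FPKM in tKO DM3. Hey2, the third gene of the Hey family, was at 0.029 ± 0.0241 FPKM in control GM and 0.187 ± 0.185 in tKO GM, with 0.450 FPKM in its highest library, and at means of 0.0254 in control DM3 and 0.110 in tKO DM3 (SD, n = 4 each). Nrarp, a feedback target of Notch, had means of 0.144 FPKM for control and 0.0667 for tKO libraries of GM, and 0.182 and 0.171 for those of DM3. The fourth receptor gene, Notch4, had no more than 22 fragments in any library.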
